A study of Homo sapiens with 21 samples.

Results

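The regions described here were called as open in all 14 libraries of replicates 1 and 3 and in none of the 7 libraries of replicate 2. They numbered 499 of the 160166 autosomal regions obtained by merging the peaks of 21 ATAC-seq libraries wherever they shared at least 1 bp. A set of 24555 autosomal regions called in all 21 libraries served for comparison, and 44718 regions were called in all 14 libraries of replicates 1 and 3. ATAC-seq uses a transposase that cuts and tags accessible DNA. The cells were derived from H9, a human embryonic stem cell line in wide use, and resemble microglia after 28 days of microglial differentiation, and 80000 cells per line were sorted.

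There were 7 isogenic lines with 3 libraries each. CD33 SNP and INPP5D SNP carried Alzheimer-associated variants at an inhibitory sialic acid receptor and at an inositol phosphatase, and H9, itself heterozygous at the INPP5D variant, was made homozygous for its A allele. TREM2-R47H and TREM2-KO were altered in TREM2, a lipid-sensing receptor of microglia, and SORL1-A528T and SORL1-KO in SORL1, an endosomal sorting receptor. All edits were made with CRISPR/Cas9 and were homozygous per the labels' protocols, which list a SORL1R744X edit that no title names. WT was the unedited H9 line. The libraries titled SORL1-A528T have a genotype label that names TREM2-KO and were grouped by title. Whether replicates came from separate differentiations, and how many clones a line stands for, is not given in the labels, so the spread behind each p-value is that among libraries and may be technical.

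Open chromatin in a differentiated cell falls at gene starts, most of which are open in many cell types, and at enhancers inside and between genes, which differ more between cell types. Many gene starts lie in CpG islands, stretches of DNA rich in G and C in which the CG dinucleotide is kept. A peak caller reports a region when its tags pass a threshold, so a weakly open region can be reported in one library and missed in another from the same cells.

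Depth was not the only feature that set replicate 2 apart. Per the file headers, replicate 2 libraries held 12.8 to 17.5 M tags (M for mega, the SI prefix), against 56.5 to 67.4 M in replicate 1 and 32.6 to 52.9 M in replicate 3. The estimated fragment length was 136 to 494 bp in replicate 2 and 74 bp in all 14 libraries of replicates 1 and 3. The threshold for a peak was 4.58 to 5.49 tags per 10 M tags in replicate 2 and 2.89 to 4.16 in replicates 1 and 3. The share of tags in peaks was 66.3 to 73.9% in replicate 2, 45.7 to 57.6% in replicate 1 and 39.4 to 74.3% in replicate 3. Depth, fragment length and threshold cannot be told apart as sources of a missing call, and the regions are therefore named by their calls and not as sensitive to depth. Of homeostatic microglia genes, 11 of 14 matched had a region called in all 21 libraries, as did 14 of 15 myeloid transcription factors, 3 of 10 pluripotency genes and 8 of 16 neural genes.

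The regions at gene starts that stood highest in file order are shown first through their promoters, as the letters under the region bear on its base composition. Each sequence runs from 250 bases before to 50 bases after a gene start (RefSeq, GRCh38.p14), is written 5′ to 3′ on the strand of the gene and lies under the region over all of its 300 bases. Capitals mark every match, on either strand, to GGGCGG (the core of GC boxes, which reads CCGCCC on the other strand), to the CCAAT box, to TATAAA (the core of TATA boxes), to GAGGAAGT (a core bound by PU.1, a myeloid transcription factor, which reads ACTTCCTC on the other strand) and to the AP-1 site TGANTCA. ARHGAP27 lies at chr17:45432821-45433120 on the minus strand. SLC25A17, a carrier of the peroxisomal membrane, lies at chr22:40819297-40819596 on the minus strand. RCAN3, a regulator of calcineurin, lies at chr1:24502586-24502885 on the plus strand. ISYNA1, which makes inositol phosphate from glucose 6-phosphate, lies at chr19:18437260-18437559 on the minus strand. EIF6, a factor of large ribosomal subunit assembly, lies at chr20:35284668-35284967 on the minus strand. ENG, the TGF-beta co-receptor endoglin, lies at chr9:127854609-127854908 on the minus strand and is shown as an example of a promoter poor in CG.
ARHGAP27: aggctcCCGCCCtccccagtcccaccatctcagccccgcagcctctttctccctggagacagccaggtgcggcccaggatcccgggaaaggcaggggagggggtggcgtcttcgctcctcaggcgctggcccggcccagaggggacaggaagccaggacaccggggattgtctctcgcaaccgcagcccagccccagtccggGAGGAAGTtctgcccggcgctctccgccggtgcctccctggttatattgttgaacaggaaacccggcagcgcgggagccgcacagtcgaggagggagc
SLC25A17: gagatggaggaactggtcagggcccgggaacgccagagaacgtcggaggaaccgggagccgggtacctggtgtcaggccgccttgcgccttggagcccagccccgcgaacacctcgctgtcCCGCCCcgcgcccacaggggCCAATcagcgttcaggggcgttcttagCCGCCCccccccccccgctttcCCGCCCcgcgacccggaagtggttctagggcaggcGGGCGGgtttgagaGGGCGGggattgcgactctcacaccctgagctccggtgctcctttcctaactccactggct
RCAN3: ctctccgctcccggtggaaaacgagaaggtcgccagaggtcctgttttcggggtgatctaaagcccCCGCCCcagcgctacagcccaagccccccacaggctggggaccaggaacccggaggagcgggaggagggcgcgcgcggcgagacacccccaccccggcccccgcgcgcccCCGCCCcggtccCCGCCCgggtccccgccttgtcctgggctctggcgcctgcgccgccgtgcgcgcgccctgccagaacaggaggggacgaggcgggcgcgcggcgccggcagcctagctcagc
ISYNA1: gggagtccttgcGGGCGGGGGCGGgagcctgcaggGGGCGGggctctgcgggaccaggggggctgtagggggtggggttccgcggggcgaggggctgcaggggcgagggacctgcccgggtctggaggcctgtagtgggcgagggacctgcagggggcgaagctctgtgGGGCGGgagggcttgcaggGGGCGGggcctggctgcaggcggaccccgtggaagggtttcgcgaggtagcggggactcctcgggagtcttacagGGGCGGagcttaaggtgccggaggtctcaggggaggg
EIF6: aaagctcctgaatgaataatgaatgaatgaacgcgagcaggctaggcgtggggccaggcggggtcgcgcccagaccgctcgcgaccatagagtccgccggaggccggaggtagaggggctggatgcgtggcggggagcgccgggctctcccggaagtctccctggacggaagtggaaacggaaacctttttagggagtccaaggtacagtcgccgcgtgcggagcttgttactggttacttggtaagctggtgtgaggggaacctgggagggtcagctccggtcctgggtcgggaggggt
ENG: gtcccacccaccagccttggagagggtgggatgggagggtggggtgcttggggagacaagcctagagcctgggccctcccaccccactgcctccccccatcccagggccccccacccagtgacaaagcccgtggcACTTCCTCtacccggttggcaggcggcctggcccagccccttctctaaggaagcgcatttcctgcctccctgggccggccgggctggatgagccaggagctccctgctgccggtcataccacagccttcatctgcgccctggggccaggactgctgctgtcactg

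The sequence of ISYNA1 holds 6 GC boxes and that of SLC25A17 holds 5 with 1 CCAAT box, whereas that of EIF6 holds none of the motifs. The printed sequences of ARHGAP27 and ENG hold 1 GAGGAAGT match each. The ratio of observed to expected CG was 0.906 for EIF6 and 0.852 for RCAN3, against 0.231 for ENG.

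A coding gene start from the promoter table lay under a member for 34 genes, under a region called in all 21 libraries for 7009 genes, and 15099 genes had a start in the table. Each gene was counted once, by the first of its starts along the chromosome, so the printed ARHGAP27 sequence, from another start, is not among the 34. Median G and C content was 65.0% under the 499 regions and 65.0% under those called in all 21. The median CG ratio was 0.743 under the 499 regions, 0.851 under those called in all 21 and 0.760 over all starts. A GC box stood in 73.5% (25 of 34), against 71.8% under regions called in all 21 and 57.6% of all starts. A CCAAT box stood in 26.5% (9 of 34), against 40.5% and 35.7%. The 34 promoters thus held GC boxes about as often as the set called everywhere, with a lower CG ratio and fewer CCAAT boxes, and 34 genes are too few to fix these shares closely. TATAAA was found in 1, GAGGAAGT in 2 (KLHL26 and ENG) and TGANTCA in 3 of the 34, against 10.0%, 2.48% and 5.91% of all starts.

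The 499 regions were narrower, more often inside genes and less often at gene starts than regions called in all 21 libraries. Of the 499, 40 (8.02%) lay within 1 kb of a coding gene start, against 26.3% of those called in all 21. A coding gene end, the start or the finish of a gene span, lay within 1 kb of 62 (12.4%, exact 95% interval 9.66 to 15.6%, counting error only), against 29.7%. The gene-end share depended on the rule: it was 25.6% against 29.0% where a call needed 50% cover, 20.1% against 32.3% in the first 80% of each list, and 7.29% against 29.4% with replicate 3 alone set against replicate 2. A further 259 (51.9%) lay inside a gene span, against 34.9%, and 178 (35.7%) outside all gene spans, against 35.4%. Exons and introns were not told apart, as no transcript annotation was used. Only 11 of the 499 (2.20%) lay over 100 kb from any gene, against 12.3%, and the median distance to a coding gene start was 22730 bp, against 32940 bp. The genes that held them were shorter, with a median length of 72210 bp against 159900 bp. The median merged width was 896 bp against 1578 bp. Over all 160166 autosomal regions, 7.26% lay within 1 kb of a coding gene start, 9.77% at a gene end and 41.9% inside a gene span. Their median width was 738 bp. In width and in the shares at gene starts and gene ends, the 499 regions were thus closer to all regions than to those called in all 21. The share inside genes was above both. The rule used the calls and not the location, but width goes with the number of libraries that call a region, since merging joins their peaks. A wider region also comes within 1 kb of a gene start or end more easily, so location was not fully free of the rule. The part of width in the location shares was not tested.

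**Figure D1:**
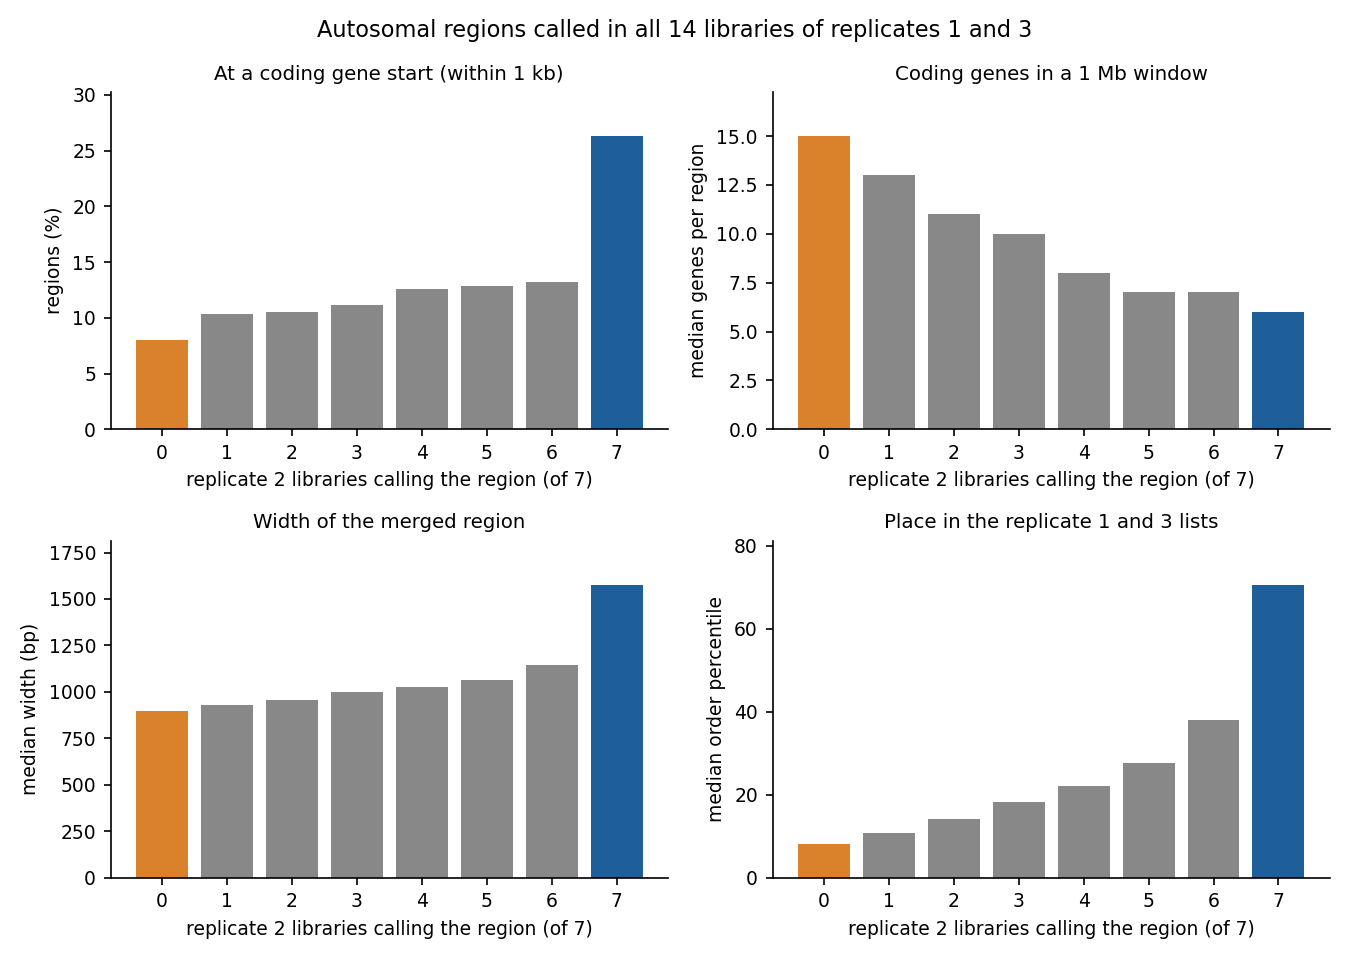
Regions called in all 14 libraries of replicates 1 and 3, by the number of replicate 2 libraries (0 to 7) that also called them; bars give the share within 1 kb of a coding gene start (%), the median number of coding genes in 1 Mb, the median merged width (bp) and the median place in the lists (order percentile, 100 being first). The 499 regions called by none (orange) lie at one end of each measure and have 15 genes in 1 Mb, against 6 for those called by all 7 (blue). The share at a gene start changes most between 6 and 7 calls.

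Width, gene starts, gene density and place changed step by step with the number of replicate 2 libraries that called a region. Just outside the rule, the 1154 regions called in all 14 libraries and in 1 of 7 were 930.5 bp wide in the median and 10.3% lay at a gene start. The share at a gene start was 12.6% for regions called by 4 and 13.2% for those called by 6 of the replicate 2 libraries, below the 26.3% of those called by all 7. The median number of coding genes within a 1 Mb window was 15 for the 499 regions, 13, 11 and 10 for regions called by 1, 2 and 3 replicate 2 libraries, and 6 for those called by all 7. The bars by number of calling libraries show that the 499 regions stand at one end in these measures. Other shares did not change step by step. The gene-end share was 12.4% for none, 15.2 to 16.9% for 1 to 6 calls and 29.7% for all 7. The inside-gene share was 51.9%, 42.5 to 47.1% and 34.9%. The shares at gene starts and gene ends changed most between 6 and 7 calls. Another 709 regions were called in 13 of the 14 libraries and in none of replicate 2. The SORL1-A528T replicate 1 library was the missing one in 132 of the 709. Among the 1154 with 1 replicate 2 call, the SORL1-KO library made it in 349, CD33 SNP in 250 and SORL1-A528T in 23.

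No autosomal region showed the reverse pattern, called in all 7 replicate 2 libraries and in none of the other 14. For scale, 27 regions were called in all 7 replicate 1 and no replicate 3 libraries, and 38 in all 7 replicate 3 and no replicate 1 libraries. On chromosome X, which the rule leaves out, 3 regions met the call pattern.

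The regions were concentrated on chromosomes rich in genes. Chromosome 22 held 23 of the 499 beside 158 regions called in all 21 libraries, or 145.6 per 1000 of them. Chromosome 17 held 47 beside 465, or 101.1 per 1000, and chromosomes 20 and 19 held 49.7 and 49.0 per 1000. Chromosome 13 held 3 beside 747, or 4.02 per 1000, and chromosome 4 held 6.48 per 1000. Chromosomes 17, 19, 20 and 22 together carried 25.3% of the 499 regions, against 7.17% of those called in all 21. Chromosome 17 carried 9.42% of the 499 regions and 6.11% of all coding genes, whereas chromosome 19 carried 6.61% of the 499 and 7.59% of the genes.

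**Figure D2:**
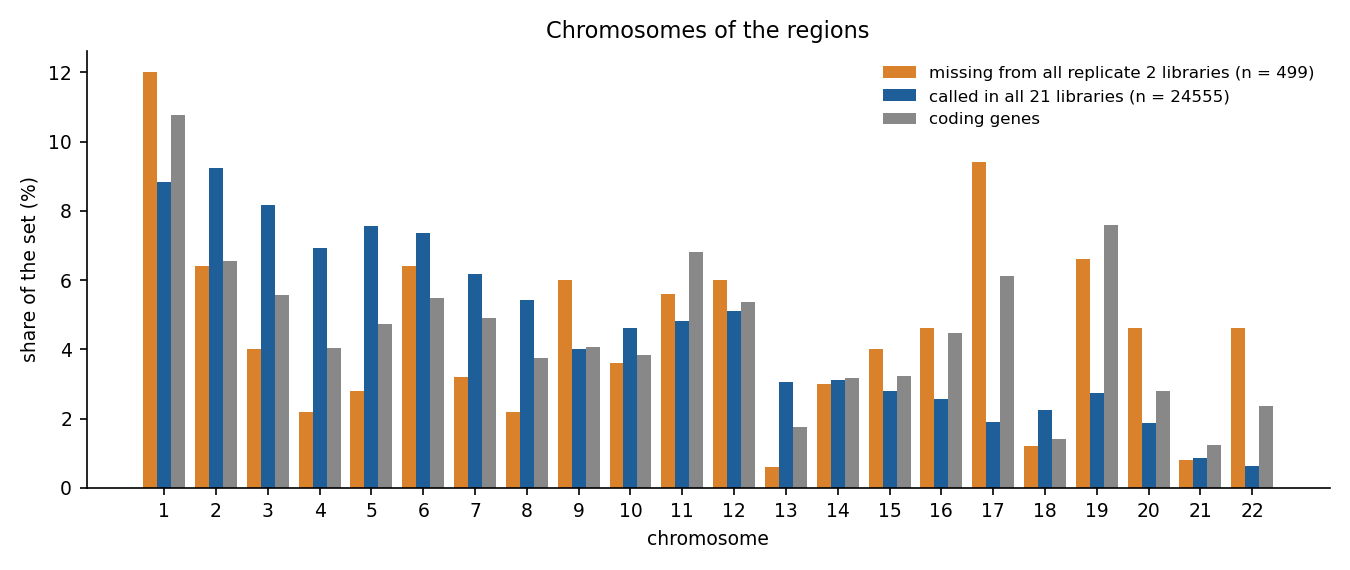
Share (%) of each autosome in the 499 regions (orange), in the 24555 regions called in all 21 libraries (blue) and among coding genes (grey). Chromosome 17 holds 9.42% of the 499 regions, against 1.89% of those called in all 21 libraries.

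The median distance from a region of the 499 to another of them was 523000 bp, and 12 (2.40%) had one within 10 kb. The spacing to be expected for a set of this size was not computed. Whether the regions lie apart or close together was therefore not tested. The nearest region called in all 21 libraries was 25570 bp away in the median, against 18790 bp between 2 such regions. A region called in at least 1 replicate 2 library lay within 10 kb of 328 (65.7%).

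Whether the same features mark regions lost from a single replicate 2 library was tested line by line, with the 499 regions and those called in all 21 left out. In each line, regions called in replicates 1 and 3 but not in replicate 2 (13596 to 32256) were set against regions called in all 3 replicates (6857 to 26626). Lines share many regions, so the 7 differences are not fully independent, and an exact sign-flip permutation test over 7 lines (two-sided) cannot go below p = 0.01562. The share at gene ends was 10.0 ± 2.56% in lost and 12.5 ± 1.63% in kept regions (SD, n = 7 lines), and the difference of -2.53 points, lower in 5 of 7 lines, did not pass (exact p = 0.1406). The other 9 measures were chosen after values had been seen. Lost regions lay inside gene spans in 46.5 ± 1.03%, against 43.6 ± 0.876% of kept regions (SD, n = 7 lines), higher in 7 of 7 lines (exact p = 0.01562). Their median width was 863 ± 49.4 bp, against 996 ± 22.2 bp (SD, n = 7 lines), lower in 7 of 7 lines with the same exact p. This is the width merged over all 21 libraries, and a kept region holds a replicate 2 peak of its line that a lost one lacks. The direction for width was thus in part set in advance, and no conclusion is drawn from it. The length of the gene around lost regions was 133300 ± 9974 bp, against 154700 ± 7102 bp (SD, n = 7 lines), lower in 7 of 7. Chromosomes 17, 19, 20 and 22 carried 12.3% of lost and 8.79% of kept regions, higher in 6 of 7 lines (exact p = 0.03125). After Benjamini-Hochberg adjustment over the 10 measures none passed, the lowest adjusted exact p being 0.05207. Within lines the features thus had the direction seen in the 499 regions for gene length and position inside genes, at a smaller size and without passing the adjustment.

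The lists give no height, so the place of a region in each list was the only graded value besides width. Neither labels nor file headers say how the lists were sorted, so a higher place need not be a stronger signal. The order percentile counts the 44718 regions called in all 14 libraries, with 100 for the first in the file. The 499 regions stood near the bottom, with library medians of 3.47 to 17.7, against 68.5 to 72.2 for regions called in all 21. The median place rose with each added replicate 2 call, 8.13 for none, 10.9 for 1, 22.02 for 4 and 70.7 for all 7. The rule rests on calls from the same lists, so these levels are a description. Peak width had library medians of 501 to 755 bp for the 499 regions, against 1032 to 1235 bp, and the set peak size of 500 bp puts a floor near 501 bp. Of the 499, 2.40% (TREM2-KO replicate 1) to 84.8% (WT replicate 3) stood further down their list than the length of the replicate 2 list of the same line, against 0.0204 to 5.54% of regions called in all 21.

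The 499 regions stood higher in replicate 1 than in replicate 3, a contrast the rule did not use directly. The median difference fell with each added replicate 2 call, from 6.87 points for none to -2.82 for all 7, so the rule was not neutral to it. Library medians of the 499 were 7.67 to 17.7 (median 13.1) in replicate 1 and 3.47 to 12.5 (median 4.33) in replicate 3. The ranges overlapped through 1 library, SORL1-A528T replicate 3 at 12.5, the other replicate 3 medians ending at 7.17. Means over the regions were 16.6 ± 3.04 in replicate 1 and 8.62 ± 3.68 in replicate 3 (SD, n = 7 lines), a difference of 7.93 ± 4.06 points. It was positive in 7 of 7 lines, from 0.888 in SORL1-A528T to 11.9 in INPP5D SNP, with an exact two-sided sign-flip permutation p of 0.01562, the smallest possible (0.0469 adjusted over 3 measures). Over the regions called in all 14 libraries, such differences correlated between lines (r of 0.166 to 0.677 in 21 pairs). The 7 lines are therefore not fully independent. Counted in the whole list, the difference was 6.04 ± 6.80 points, positive in 5 of 7 lines (exact p = 0.0625). On the log2 scale the peaks were 0.21 ± 0.14 wider in replicate 1, in 6 of 7 lines (exact p = 0.03125, adjusted 0.0469), with a difference of -0.08 in SORL1-A528T. These widths were not centred on the library median. Regions called in all 21 had median library widths of 1158 bp in replicate 1 and 1096 bp in replicate 3. In the median library 25.45% of the 499 were 501 bp or less in replicate 1, against 61.32% in replicate 3. How far a shift of whole libraries enters was not tested. Their place in the lists and uncentred width were thus higher in replicate 1 in most lines, and the place held in every line only when counted among the shared regions.

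**Figure D3:**
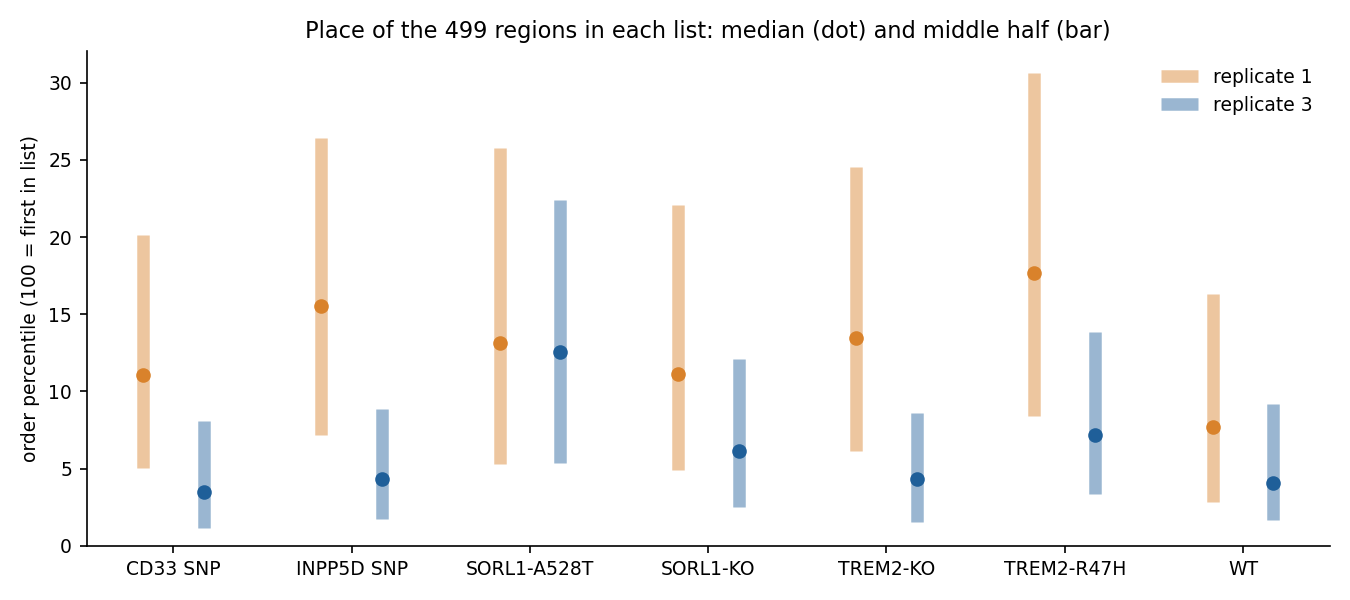
Order percentile of the 499 regions (100 being first in the list) in each of 14 libraries, replicate 1 (orange, left) beside replicate 3 (blue, right) of each line; dots give the median and bars the interquartile range. Medians are 7.67 to 17.7 in replicate 1 and 3.47 to 12.5 in replicate 3, with SORL1-A528T alone nearly equal in both.

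Fitted over all 44718 regions with limma, with the line as a block, 106 of the 499 regions (21.2%) were higher in replicate 1 and 0 were lower (adjusted p under 0.05). With percentiles over the whole list 57 were higher and 7 lower. Over all regions tested, 14% were called higher and 14.7% lower, or 28.8% either way. The median difference was 6.87 points for the 499 regions and -1.17 over all. A region near the bottom of the order can fall by little, which limits calls in the lower direction, and 4 of the 499 were lower at an unadjusted p under 0.05. The share called higher was 23.2% for regions with 1 replicate 2 call, 20.4% with 4 and 10.4% with all 7. The share for the 499 was thus above that of all regions and close to that of regions with 1 to 4 replicate 2 calls. For log2 width 5 of the 499 were called wider in replicate 1 and 0 narrower, beside 1.13% and 0.275% of all regions (1.4% either way), a share near the background. With widths centred on the library median, as in this fit, the median log2 width difference was 0.12 for the 499 and -0.02 for all regions.

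Among the 499, the median difference was larger at gene starts than elsewhere. The 40 there had a median of 21.7 in replicate 1 and 8.59 in replicate 3, with a median difference of 13.9 points and 97.5% of them higher in replicate 1. The 251 inside gene spans had 12.7 and 7.14 with a median difference of 6.07, and the 178 outside had 13.9 and 6.94 with 6.80. Gene starts called in all 14 libraries and in 1 to 6 of replicate 2 showed 18.9 points, and those called in all 21 showed 1.48. Regions over a gene start and called in all 14 libraries (8316) were split into 4 equal groups by the G and C content of the promoter. The median difference was 1.88 points in the group with the lowest content and 6.64 in that with the highest. Of the 499 regions, 3 fell in the lowest, 14 and 7 in the middle and 4 in the highest group. Whether base composition had a part in the contrast was not tested.

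The place of the 499 regions was set against 3 features of the library, within each replicate number, as the replicates differed in place. For tags in peaks, within replicate 3 Pearson r was -0.959 (exact permutation p = 0.0107) and Spearman rho -0.929 (exact permutation p = 0.00675). Without the 2 libraries farthest from the median r was -0.972. Adjusted over 9 relations these p were 0.0241 and 0.0152, but 3 of the 9 pooled both replicates. The smaller p of those 3 lower the adjusted values, and no adjustment over the relations within replicates alone was run. Pooled over 14 libraries r was -0.884 for tags in peaks, 0.763 for depth and -0.679 for the number of peaks. These pooled values mix in the difference between replicates. Within replicate 1 r was -0.657 (exact permutation p = 0.127) and rho -0.607 (exact permutation p = 0.167). For depth, within replicate 1 r was 0.052 (exact permutation p = 0.898) with rho 0, and within replicate 3 r was 0.528 (exact permutation p = 0.0552) with rho 0.75 (exact permutation p = 0.0663). For the number of peaks r was -0.416 within replicate 1 (rho -0.5) and -0.797 within replicate 3 (rho -0.643), and neither passed after adjustment. SORL1-A528T replicate 3 had both the lowest share of tags in peaks, 39.4%, and the highest place among replicate 3 libraries. The relation with tags in peaks was thus seen within replicate 3, its adjusted p resting in part on the pooled relations. One with depth did not pass within either replicate.

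**Figure D4:**
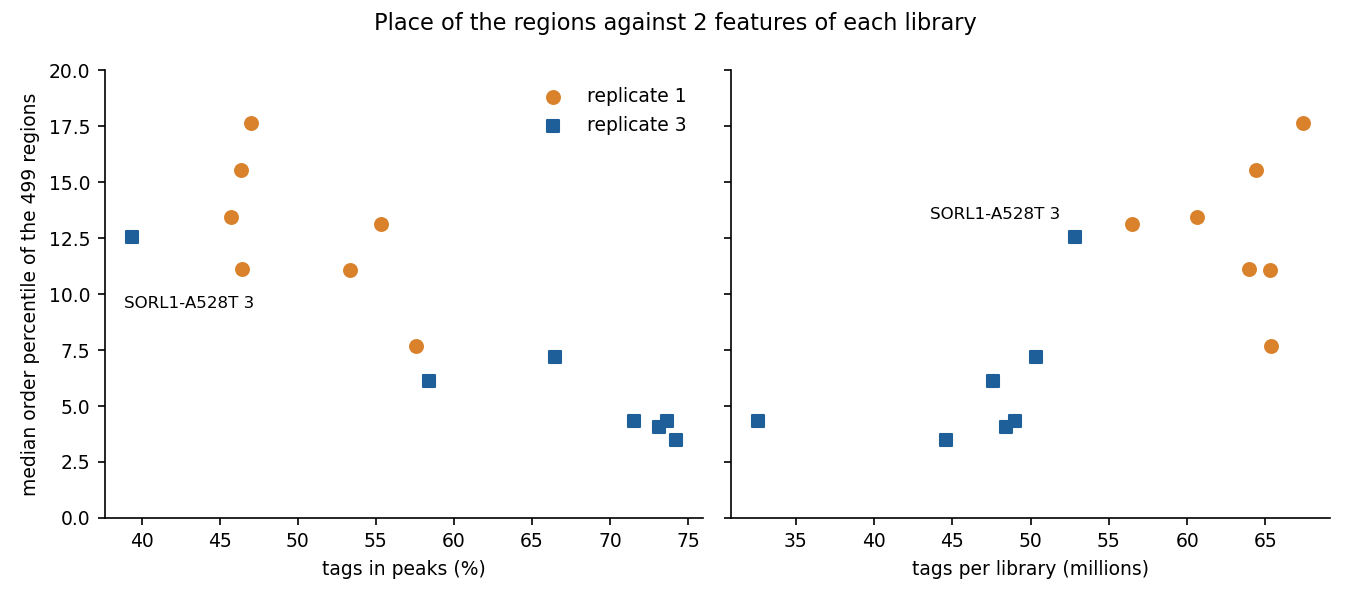
Median order percentile of the 499 regions in each of 14 libraries against the share of tags in peaks (%, left) and the tags per library (M, right), for replicate 1 (orange circles) and replicate 3 (blue squares). The replicate 3 library of SORL1-A528T, with 39.4% of tags in peaks, stands at 12.5, among the replicate 1 libraries.

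The regions at gene ends with the highest mean place over the 14 libraries, a choice not independent of the contrast, included the genes whose promoters are printed above. The region over the ARHGAP27 start (chr17:45430773-45433419) had a lowest, median and highest percentile of 56.3, 65.2 and 68.6 in replicate 1, against 0.221, 24.1 and 69.3 in replicate 3. Replicate 1 libraries lay close together, whereas those of replicate 3 spread over most of the order, with SORL1-A528T on top. The difference was 38.4 ± 7.88 points (limma SE, adjusted p = 0.0136), positive in 6 of 7 lines. With whole-list percentiles it was 29 points and did not pass (adjusted p = 0.0627).

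The SLC25A17 region (chr22:40817816-40819945) had 48.3, 61.5 and 68.2 in replicate 1, against 0.756, 17.6 and 61.3 in replicate 3. Its difference was 38.1 ± 8.55 points (adjusted p = 0.0175, limma), in 6 of 7 lines, the groups overlapping through SORL1-A528T. The RCAN3 region (chr1:24501121-24503670) had 45.1, 60.0 and 75.6 in replicate 1, against 0.311, 11.5 and 44.1 in replicate 3. These did not overlap, and the difference was 41.5 ± 4.58 points in 7 of 7 lines (adjusted p = 0.00325, limma). It was also wider in replicate 1, with a median of 2042 bp against 797 bp in replicate 3 (log2 difference 0.98 ± 0.18, adjusted p = 0.0296, limma).

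LIN7B, a scaffold protein of cell polarity, had a region (chr19:49113586-49115458) at 44.3, 58.9 and 67.6 in replicate 1, against 1.19, 8.93 and 43.5 in replicate 3. The groups did not overlap (difference 45.5 ± 5.04, adjusted p = 0.00327, limma), and the peaks were wider in replicate 1 by 0.82 ± 0.12 on the log2 scale (adjusted p = 0.0112, limma). PINK1, a kinase that marks damaged mitochondria, had a region (chr1:20633092-20634987) at 49.3, 56.3 and 68.5 in replicate 1, against 0.456, 11.2 and 38.1 in replicate 3. It covered an end of the PINK1 span. The promoter table holds no start of PINK1, so the region was not counted at a gene start even if that end is the start. Its difference of 43.8 ± 2.98 points held in 7 of 7 lines (adjusted p = 0.00112, limma).

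The ISYNA1 region (chr19:18435671-18438701) had 45, 50.4 and 67.6 in replicate 1, against 0.0224, 13.2 and 82.8 in replicate 3. SORL1-A528T replicate 3 was the highest of all 14 values, and the difference was 30.4 ± 8.63 points in 6 of 7 lines (adjusted p = 0.0361, limma). SRPK1, a kinase of splicing factors, differed by 27.5 ± 7.84 points (adjusted p = 0.0364, limma), and GJD3, a connexin, by 23.2 ± 7.31 (adjusted p = 0.0492). With 1 line left out the adjusted p reached 0.0901 for ISYNA1, 0.0897 for SRPK1 and 0.116 for GJD3. The EIF6 region had 31.5, 52.1 and 60.5 in replicate 1, against 3.02, 22.5 and 69.0 in replicate 3, and did not pass (adjusted p = 0.123, limma). The ENG region (chr9:127853200-127855113) had a mean place of 28.8 over the 14 libraries. A region at the very end of chromosome 3 (chr3:9924-10819), near LOC124905351, had the largest difference of those named, 56.2 ± 5.35 points (adjusted p = 0.00243, limma) and is reported as uncertain, as the tip of a chromosome is a repeated sequence.

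**Figure D5:**
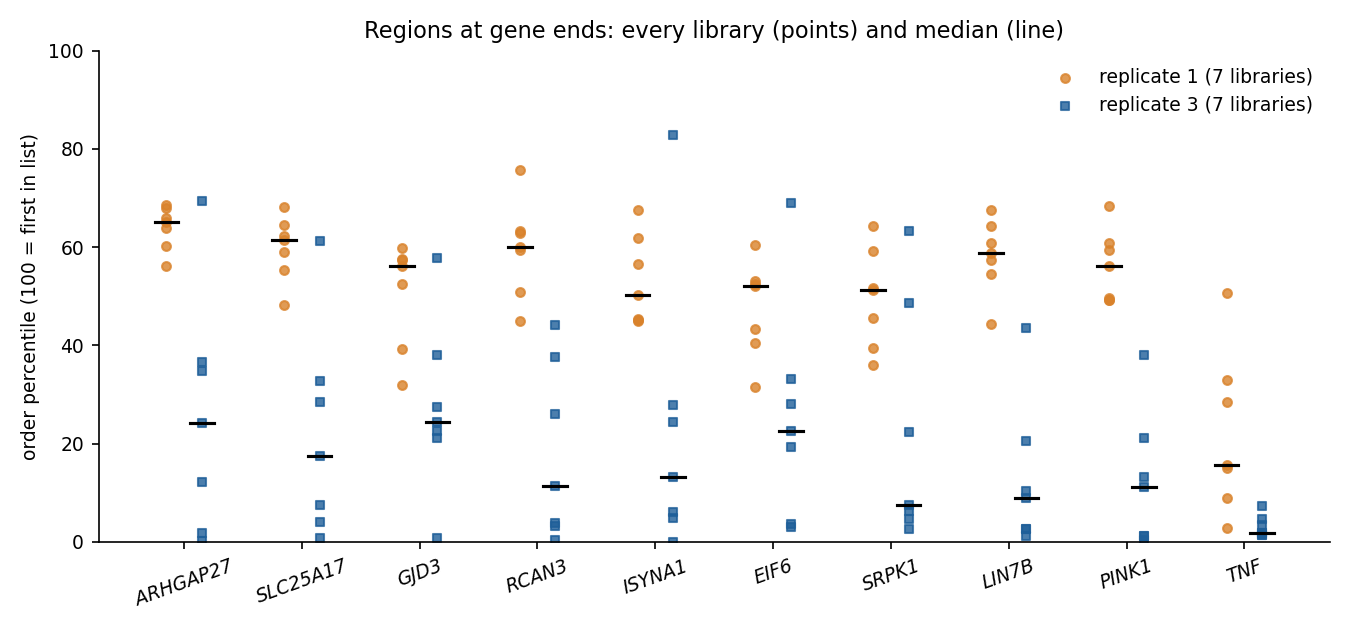
Order percentile (100 being first in the list) at TNF and at 9 of the 10 gene-end regions highest in the order, all but that near LOC124905351, with a point for each of 7 replicate 1 libraries (orange circles, left) and 7 replicate 3 libraries (blue squares, right) and a line at the median. At RCAN3, LIN7B and PINK1 the replicates do not overlap, whereas at ARHGAP27, ISYNA1 and EIF6 the SORL1-A528T replicate 3 library stands above every replicate 1 library.

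The 5 gene-end regions lowest in the order had a mean place of 4.62 to 7.45, which leaves little room for a difference, and none passed. NCOA3, a nuclear receptor coactivator, had 0.382, 3.16 and 25.1 in replicate 1, against 0.121, 1.63 and 6.94 in replicate 3 (adjusted p = 0.29, limma). SLC26A9, ZBTB8B, GRAMD2A and MUC8 had differences of 2.85, 2.09, 6.90 and 0.180 points, with adjusted p of 0.434, 0.746, 0.134 and 0.971 (limma). Among the 5 widest regions, EIF3I (a subunit of the translation initiation factor eIF3) differed by 31.5 ± 7.27 points (adjusted p = 0.0191, limma) and EHD4, an endosomal transport protein, by 27.1 ± 7.86 (adjusted p = 0.0382). With 1 line left out the adjusted p reached 0.0518 for EIF3I and 0.0938 for EHD4, which also missed the threshold with whole-list percentiles (adjusted p = 0.0616). The widest, 3790 bp inside ZNF717, did not pass (adjusted p = 0.119, limma), nor did MAML1. Of the 5 regions farthest from a gene, 137965 to 368059 bp away, none passed.

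The 488 regions with a gene within 100 kb were spread over 466 genes, and 18 genes had 2 or more. ARMC9, a protein of the cilium, had 5, all inside the gene between chr2:231227203 and chr2:231316469. One of them (chr2:231296843-231297673) was at 4.01, 19.04 and 27.1 in replicate 1, against 1.42, 5.22 and 8.62 in replicate 3, and passed (difference 12.8 ± 2.99, adjusted p = 0.0200, limma, reaching 0.0514 without CD33 SNP). The other 4 had differences of 6.403 to 8.401 points and did not pass. ARHGAP27 had 3, of which a second (chr17:45409811-45411288, difference 29.0 ± 4.65, adjusted p = 0.00721, limma) also passed. SEPTIN9, a cytoskeletal GTPase, had 2 inside the gene that differed by 23.9 ± 5.85 and 23.6 ± 4.18 points (adjusted p = 0.0229 and 0.00904, limma), and the first did not pass in 4 of 7 fits with 1 line left out (adjusted p up to 0.0629). MYO9B, an unconventional myosin, and PSAP, the precursor of the saposins, had 2 each and none passed.

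Lists of genes known in microglia and other cell types, 214 genes with 212 matched, held 10 of the 499 regions (2.00%), against 380 of those called in all 21 (1.55%). The homeostatic microglia, innate sensor, cytokine and AP-1 lists held 1 region each, the Alzheimer risk loci, phagocytosis receptors and mesenchymal and endothelial lists 2 each, and the remaining 7 lists none. At TNF, an inflammatory cytokine, the region (chr6:31575142-31576688) covers the gene start. It had 2.85, 15.8 and 50.6 in replicate 1, against 1.33, 1.83 and 7.30 in replicate 3, with overlap through WT replicate 1 at 2.85. The difference was 19 ± 5.62 points in 6 of 7 lines (adjusted p = 0.0406, limma), and the adjusted p reached 0.0988 with 1 line left out. PECAM1, an adhesion molecule of endothelium and leukocytes, had a region 13538 bp from the gene that differed by 13.7 ± 3.42 points (adjusted p = 0.0243, limma, reaching 0.0637 with 1 line left out). The regions at TGFBR1, SLC24A4, CR1, SCARB1, ITGB2, TLR5, FOSL2 and PDGFRB did not pass, with differences between -2.36 and 9.37 points. The 2 of 10 that passed, TNF and PECAM1, make a share close to the 21.2% of the 499 regions, beside 14% of all regions.

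The study's own genes held none of the 499 regions. APOE had 2 autosomal regions and 0 members, TREM2 had 4 and CD33 had 5, INPP5D had 23 and SORL1 had 37. SORL1 and INPP5D had 19 and 7 regions that no replicate 2 library called, each called in at most 11 of the 14 other libraries.

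Edited lines were compared with WT over the replicate 1 and replicate 3 libraries, 2 per line, and the 6 comparisons share the same 2 WT libraries. Mean order percentiles of the 499 regions in replicates 1 and 3 were 17.3 and 16.4 in SORL1-A528T, 21.01 and 9.58 in TREM2-R47H, 18.5 and 6.54 in INPP5D SNP, 17.7 and 6.52 in TREM2-KO, 15.4 and 8.71 in SORL1-KO and 14.5 and 5.98 in CD33 SNP, against 11.6 and 6.62 in WT. WT replicate 1 was the lowest of the replicate 1 libraries, and WT replicate 3 lay within the range of the edited replicate 3 libraries. WT replicate 1 also had the highest share of tags in peaks among replicate 1 libraries, 57.6%, and the part of this in the differences was not tested. Median differences from WT were 6.25 points for SORL1-A528T, 5.17 for TREM2-R47H, 3.35 for INPP5D SNP, 2.99 for TREM2-KO, 2.20 for SORL1-KO and 0.708 for CD33 SNP. Without the replicate 1 library of the edited line they were 4.38 for SORL1-A528T, -0.05 for TREM2-R47H and -2.20 for INPP5D SNP. For TREM2-KO, SORL1-KO and CD33 SNP they were then -2.45, -0.30 and -2.53. Such a fit sets a replicate 3 library against both WT libraries, and replicate 3 stood lower in every line. These values therefore mix line with replicate number. Within replicate 3 alone, the means above were higher than in WT for SORL1-A528T, TREM2-R47H and SORL1-KO. They were lower than in WT for INPP5D SNP, TREM2-KO and CD33 SNP. For CD33 SNP the median difference was -0.23 without WT replicate 3, again with unmatched replicates. With limma over 44718 regions, 0 of the 499 passed in any of the 6 comparisons of place, beside 0% of all regions in 5 comparisons and 0.00224% in that of TREM2-R47H. At an unadjusted p under 0.05, 46 of the 499 were higher and 2 lower in SORL1-A528T, 22 and 0 in TREM2-R47H, and 6 to 12 higher with at most 1 lower in each of the other 4 lines. As shares these were 9.22% higher and 0.401% lower in SORL1-A528T, beside 2.21% and 3.98% of all regions, and 4.41% and 0% in TREM2-R47H, beside 2.97% and 3.89%. In the other 4 lines 1.20 to 2.40% of the 499 were higher, beside 1.00 to 1.25% of all regions. For log2 width 0 of the 499 passed in all 6 comparisons, beside 0% of all regions, and 6 to 48 (1.20 to 9.62%) were wider and 0 to 5 (0 to 1.00%) narrower at an unadjusted p under 0.05, beside 1.26 to 5.18% and 1.19 to 2.98% of all regions. Same-numbered libraries moved together, and with the replicate number as a block 53 regions passed for the place in TREM2-R47H (9 higher, 44 lower) and 3 in SORL1-A528T, in each case with 0 of the 499. No difference between an edited line and WT was therefore detectable at the 499 regions with 2 libraries a line.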

How the data were processed

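ATAC-seq peak lists of 21 libraries were used as deposited. Per the submitters' processing notes the tools included cutadapt 1.18, STAR 2.7 and HOMER 4.10. Per the file headers, HOMER called peaks library by library, without a control library, in histone style with a peak size of 500 bp, a minimum distance of 1000 bp, a 4.00-fold excess of tags over a local window of 10000 bp and a Poisson p of 1.00e-04. The deposited score column holds 1 for every peak, so positions and file order were used. Any shift of reads for the transposase, and the genome build, are not given in the sources used here. Coordinates were copied from the deposited lists and count from 1. Of 21156 RefSeq GRCh38.p14 gene starts 43.1% fell within the regions found in every library, a share of 2.39% and 2.49% after moving the starts by 10000 bp to either side.

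Peaks sharing at least 1 bp were merged, with at least 1 peak inside counting as a call. Gene spans of 19974 coding genes and starts from the promoter table, which does not hold every gene, came from RefSeq GRCh38.p14. Order percentiles were ranks in the file among the 44718 regions called in all 14 libraries of replicates 1 and 3, and the width of a region in a library was that of its peaks there on the log2 scale. Both, with log2 width centred on the library median, were fitted over these regions with limma 3.58.1 (R 4.3.3) with Benjamini-Hochberg adjustment. Values per line were tested by exact sign-flip permutation, and library relations within a replicate by exact permutation. The fits were tested on simulated data.

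Same-numbered libraries deviated together from their line means in all 21 pairs of lines, with correlations of 0.166 to 0.677, so the replicate number pairs the libraries. The labels do not say what a number marks. The members, gene lists and comparisons were chosen with earlier results of these data known. Named were the 5 study genes, gene-end regions highest (10) and lowest (5) in the order, genes with most members, up to 4 members per list, up to 5 per direction in a limma comparison, the 5 widest and the 5 farthest from a gene. Promoter features use starts that lie under a region, in place of gene ends within 1 kb. Alternatives were a 50% cover, merging over 500 bp, the first 80% of each list, other library choices, a window of 2000 bp, the replicate block, whole-list percentiles and leaving out each library or line. The whole-list percentile for single regions, and the gene-start and inside-gene shares per line, were added after seeing the data. An item among the genes named by this rule is not reported here.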

Additional observations from a re-analysis of the deposited data

Results flagged for a closer look

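At the 499 regions the peaks of TREM2-R47H replicate 1 had a median width of 755 bp, far above the other replicate 1 libraries at 626 to 642 bp. SORL1-A528T replicate 3 had a median order percentile of 12.5, far above the other replicate 3 libraries at 3.47 to 7.17. INPP5D SNP replicate 3 held 32.6 M tags, far below the other replicate 3 libraries at 44.6 to 52.9 M. A library of this kind was found in 3 of 16 groups of 7 values checked, and chance alone marks about 1 in 20 groups. The log2 width of the 499 regions, not centred on the library median, differed by -0.083 (replicate 1 minus replicate 3) in SORL1-A528T. It differed by 0.16 to 0.35 in the other 6 lines, and this difference between lines was not tested.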

How the results depend on the processing

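The number of regions depended on the rule, and so did which regions met it. The number was 773 (331 of them shared with the 499) where a call needed 50% cover. With the first 80% of each list it was 482, of which only 86 were shared with the 499. It was 1616 with replicate 1 alone and 1275 with replicate 3 alone set against replicate 2, and 797 without the SORL1-A528T libraries. Without the CD33 SNP replicate 2 library it was 749, and without that of SORL1-KO 848. Over all libraries left out in turn it was 508 to 848, where fewer libraries must meet the rule. The share at gene ends, against that of regions called in every library used, was 25.6% against 29.0% at 50% cover, 20.1% against 32.3% with the first 80% of each list, 16.2% against 29.7% with replicate 1 and 7.29% against 29.4% with replicate 3 alone, 18.04% against 31.6% with a window of 2000 bp and 11.1 to 16.1% over libraries left out. The cause was not tested.

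Per line, the gene-end difference turned to 0.052 points at 50% cover (exact p = 0.953) and was -3.45 to -1.78 with a line left out. The gene-start difference of -2.76 points (exact p = 0.0469, two-sided sign-flip) was -0.62 at 50% cover (exact p = 0.547), -2.29 with a 2000 bp window (exact p = 0.141) and -3.58 to -2.09 with a line left out. The inside-gene difference was 2.55 to 3.33 with a line left out.

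The place in replicate 1 minus replicate 3 was 6.04 points with whole-list percentiles (exact p = 0.0625) and 7.27 to 9.11 with a line left out. The count of the 499 called either way was 64 with whole-list percentiles (57 higher, 7 lower) and 56 to 131 with a line left out, namely 65 without CD33 SNP, 56 without INPP5D SNP, 64 without TREM2-KO (1 lower) and 62 without TREM2-R47H (2 lower). For width the count was 0 to 15, with 15 without SORL1-A528T, 0 without TREM2-KO, 1 without INPP5D SNP and 2 without CD33 SNP, SORL1-KO or WT. Fewer libraries enter these fits. For SORL1-KO against WT it was 0 to 1, with 1 without SORL1-KO replicate 3, in a fit that assumes the lone library varies like the others. The regions taken by the naming rule included 22 past the threshold, some of which are not described above. Of these 22, 10 stayed past it under every alternative run, and 45 of 198 alternative values lost the call with none reversed. In the fits against WT, 0 of the 499 were called with the replicate block, which changed no call of a region reported here.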
